A study of Mus musculus with 15 samples.

Results

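The comparison described here was the early response of primary mouse ovarian granulosa cells to Foxl2 siRNA, 30 h after transfection, against scrambled siRNA at the same time. It used 6 of the series' 15 libraries, chosen by their labels: 3 transfected with Foxl2 siRNA and 3 with a non-targeting scrambled siRNA. All 24490 genes of the deposited count table were considered, spike-ins left out, and 14907 of them had enough counts to be tested. Both groups were granulosa cells of RjOrl:SWISS females aged 8 weeks, carrying no transgene or mutation named in the labels, and both received 30 pmol of siRNA in Lipofectamine RNAiMax, so that siRNA and lipid reagent were common to them. The other 9 libraries were the scrambled and Foxl2 siRNA groups of 54 h and an Esr2 siRNA group of 30 h.

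The labels describe pools of 3 siRNAs per well, with 4 pools per target, and list the same catalogue numbers for Foxl2 and Esr2; which pool went into which library is not stated. Whether a group's 3 libraries stem from independent cultures or animals is not stated either, so each p-value covers library-to-library spread alone, and that may be technical. RNA was made into stranded poly(A) libraries and read as single 75-base reads.

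FOXL2 is a forkhead transcription factor of granulosa cells, the somatic cells that surround the oocyte, make oestradiol and respond to the pituitary gonadotropins. In the adult mouse ovary it is known to keep granulosa cells from taking on features of Sertoli cells, their counterparts in the testis. Its known targets in these cells include follistatin and aromatase, and it acts there together with oestrogen receptor beta, the product of Esr2.

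Foxl2 itself (ENSMUSG00000050397, chr9:98955288-98958543, plus strand, GENCODE M21 on mm10) stood at 174, 152 and 143 CPM in the 3 scrambled libraries and at 33.8, 28.4 and 65.4 CPM in the 3 Foxl2 siRNA libraries. CPM are counts scaled to the library's total, adjusted by TMM. The groups did not overlap, and replicate 3 kept more Foxl2 RNA than the other Foxl2 siRNA libraries. The log2 change was -1.88 ± 0.31 (SE, n = 3 and 3; adjusted p = 0.0016 by edgeR), a 3.68-fold fall. Foxl2os, the antisense RNA that starts beside Foxl2 on the other strand and overlaps its first bases, was at 137, 117 and 115 CPM and 94.4, 95.3 and 104 CPM, with an edgeR adjusted p of 0.29. Esr2 was at 60.6, 60.4 and 61.6 CPM with scrambled siRNA and at 29.2, 25.004 and 45.5 CPM with Foxl2 siRNA, and did not pass (log2 -0.87 ± 0.34, adjusted p = 0.11 by edgeR). Without Foxl2 siRNA replicate 3 the Foxl2 change was -2.33, and Esr2 passed (log2 -1.17, adjusted p = 0.044 by edgeR). The groups of Esr2 did not overlap. It passed in 5 of the alternative fits described below, the fit without replicate 3 among them, and not in the others.

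The 6 libraries held 44.98 M to 59.4 M gene counts and 17404 to 17698 detected genes each. Foxl2 siRNA replicate 3 stood apart from its group in the whole profile as well as in Foxl2: on the first principal component of the 6 libraries, which held 52.1% of the variance, the scrambled libraries lay at -27.5, -27.3 and -29.1 and the Foxl2 siRNA libraries at 40.8, 36.9 and 6.21. The second component (25.6%) separated replicate 1 of both groups, at 31.3 and 24.5, from the other 4 libraries, at -24.6 to -2.90. Granulosa markers Inha and Amhr2 were present in all 6 libraries, at 1425 to 2407 CPM and 111 to 192 CPM, while Fshr, the follicle-stimulating hormone receptor, had only 65 counts over the 3 scrambled libraries and 103 over the 3 Foxl2 siRNA libraries. Theca and stroma markers summed to 407, 1147 and 864 CPM with scrambled siRNA and to 488, 1409 and 855 CPM with Foxl2 siRNA, low in replicate 1 of both groups, and 0 of 14 tested passed in either direction. Markers of other cells were low but not all absent. The leukocyte gene Ptprc had 0 counts with scrambled and 3 with Foxl2 siRNA, while Cd68 had 366 and 367 and Csf1r had 184 and 418. Csf1r was called higher (log2 1.24, adjusted p = 0.022 by edgeR), a call lost in 4 of the 6 fits that left out a library. Endothelial markers summed to 10.6 to 17.8 CPM with scrambled and to 22.2 to 26.5 CPM with Foxl2 siRNA, without overlap, and 1 of 11 tested was called higher. Of the 11, 8 had a log2 change above 0 and 3 below. Pecam1 had 154 counts with scrambled and 206 with Foxl2 siRNA, while Cdh5 had 91 and 63 and Tek 97 and 78. Of oocyte genes Zp3 had 0 counts in both groups and Ddx4 had 457 and 370. The globin Hbb-b1 had 0 counts in both groups, but Alas2, the haem synthesis enzyme of red cells, was called higher at under 1 CPM (log2 1.62, adjusted p = 0.017 by edgeR; lost in 3 of the 6 fits). The part of such cells in the results was not tested. In bulk RNA, fewer cells of a type and less RNA per cell cannot be told apart.

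At an edgeR adjusted p under 0.05, 13.0% of the 14907 tested genes were called at 30 h, 6.34% higher (945 genes) and 6.65% lower (991 genes) with Foxl2 siRNA. With upper-quartile scaling in place of TMM the split was 1204 higher and 799 lower. Most calls were modest: 1432 of the 1936 changed less than 2-fold, and the median absolute log2 change of called genes was 0.56. Large changes leaned downwards, with 77 genes at least 4-fold lower and 32 at least 4-fold higher. Of the called genes, 1921 had groups that did not overlap between the 3 and 3 libraries, as had 33.0% of all tested genes. The number of calls was 1073, 1171 and 898 without scrambled replicate 1, 2 or 3, and 1061, 1085 and 3016 without Foxl2 siRNA replicate 1, 2 or 3. Of the 198 genes that the naming rule picked and the test called, 159 stayed called in each of those 6 fits, and the called genes described in the paragraphs that follow did so unless stated.

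**Figure D1:**
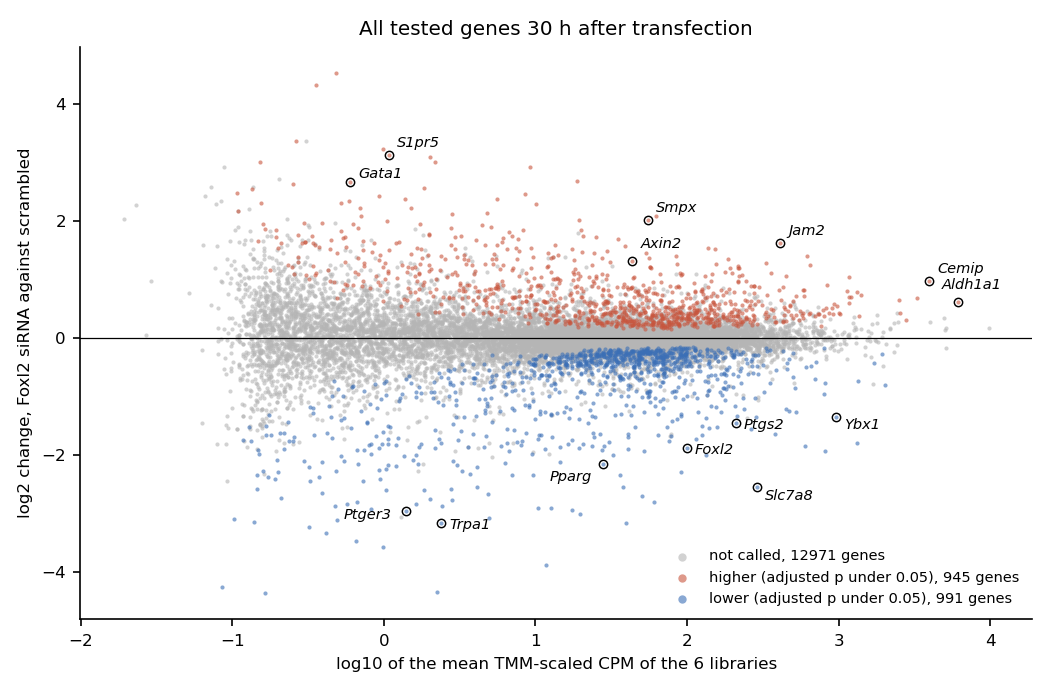
Log2 change with Foxl2 siRNA against the mean level over the 6 libraries for the 14907 tested genes at 30 h, with called genes in colour (edgeR adjusted p under 0.05). The 945 higher and 991 lower genes lie at all levels, and the highest-level labelled genes are Cemip and Aldh1a1.

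Some genes that mark Sertoli cells rose. Of the 23 tested genes of a list of Sertoli and testis genes, 6 were called higher and 0 lower, with a median log2 change of 0.61 against -0.01 over all tested genes (5 to 8 higher and 0 or 1 lower when 1 library was left out). Gata1, a zinc-finger factor that in the testis is made by Sertoli cells, was at 0.0573, 0.243 and 0.184 CPM in scrambled and 0.908, 1.13 and 1.04 CPM in Foxl2 siRNA libraries. All 3 Foxl2 siRNA libraries were above all 3 scrambled ones, at a log2 change of 2.67 ± 0.55 (adjusted p = 0.0078 by edgeR), though the level stayed near 1 CPM. Defb19, a beta-defensin known from Sertoli cells of the fetal mouse testis, went from 4.62, 2.801 and 3.42 CPM to 17.5, 9.42 and 7.91 CPM. Its groups were also separate, with replicate 1 highest in each, and the log2 change was 1.68 ± 0.33 (adjusted p = 0.0057 by edgeR).

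Aldh1a1, an enzyme that makes retinoic acid, was already abundant and rose in all 3 libraries, from 4698, 4954 and 4961 CPM to 7614, 7487 and 7270.2 CPM (log2 fold change 0.61 ± 0.09, adjusted p = 0.00076 by edgeR). Its near copy Aldh1a7, with which it can share reads, rose by a similar log2 of 0.58. Not all markers were called: Dmrt1 had 0 counts in the 6 libraries, and Amh, the anti-Müllerian hormone, had 41 counts over the scrambled and 46 over the Foxl2 siRNA libraries. Dhh, the Sertoli ligand desert hedgehog, was at 18.99, 17.6 and 19.2 CPM against 52.1, 28.9 and 28.6 CPM; its groups did not overlap and replicate 1 was well above the other libraries, and it was not called (adjusted p = 0.073 by edgeR). Zfpm1, a cofactor of GATA proteins, rose from 30.0001, 31.1 and 27.4 CPM to 55.997, 55.1 and 45.8 CPM (log2 fold change 0.83, adjusted p = 0.0017 by edgeR).

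Granulosa genes moved in both directions. Of 27 tested, 4 were called higher and 5 lower; 1 to 3 were higher and 3 to 10 lower when 1 library was left out, the 10 without Foxl2 siRNA replicate 3. Emx2, a homeobox factor needed for the urogenital ridge, rose from 121, 121 and 119 CPM to 176, 172 and 160.4 CPM, a small change (log2 0.49 ± 0.08) that was tight in both groups (adjusted p = 0.0013 by edgeR). Among forkhead factors other than Foxl2, Foxo1, a granulosa factor that insulin and follicle-stimulating hormone signalling keep out of the nucleus, fell from 40.4, 61.1 and 49.4 CPM to 29.5, 33.5 and 31.9 CPM (log2 fold change -0.67, adjusted p = 0.0056 by edgeR), and Foxo6 rose by a log2 of 0.51 (adjusted p = 0.00045 by edgeR). Of the 24 tested forkhead genes, Foxl2 included, 1 was called higher and 3 lower (2 to 4 lower without 1 library). Foxl2, the target of the siRNA, was among the 3. The share called was 16.7%, against 13.0% over all tested genes. Steroid synthesis genes also split, 3 higher and 2 lower of 20 (2 to 4 and 2 to 6, the 6 without Foxl2 siRNA replicate 3). Fdxr, which passes electrons to mitochondrial steroid hydroxylases, rose from 120.3, 123 and 117 CPM to 199.6, 183 and 154 CPM (log2 fold change 0.57 ± 0.11, adjusted p = 0.0057 by edgeR).

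Genes of steroid inactivation were called in 1 direction, 0 higher and 3 lower of 12 tested, and the same count held in each fit that left out a library. The list median was -0.01, with 5 changes above 0 and 7 below. Akr1c14, a 3-alpha-hydroxysteroid dehydrogenase, was at 139, 201 and 186 CPM with scrambled and at 39.5, 39.05 and 80.5 CPM with Foxl2 siRNA. The groups did not overlap, with replicate 3 falling least, and the log2 change was -1.73 ± 0.27 (adjusted p = 0.0012 by edgeR). Its difference from Esr2 siRNA was -0.29 (adjusted p = 0.46 by edgeR) and did not pass.

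More cholesterol synthesis and uptake genes rose than fell. Of 26 tested, 6 were called higher and 1 lower, with a list median of 0.46, and the number higher ran from 2 to 13, the highest without Foxl2 siRNA replicate 3. Sc5d, an enzyme of sterol synthesis, fell. Its log2 change was -0.92 to -0.79 in the fits that each left out 1 library (adjusted p = 3.5e-05 to 0.00048 by edgeR). Hmgcs1, which makes the HMG-CoA that feeds the pathway, was at 539.5, 613 and 596 CPM with scrambled and at 1115, 1304 and 861 CPM with Foxl2 siRNA. Fdft1, squalene synthase, the first enzyme committed to sterols, was at 214, 203 and 216 CPM and 443, 390.04 and 320.2 CPM. Both had separate groups, with replicate 3 rising least, at log2 changes of 0.91 ± 0.18 and 0.87 ± 0.18 (adjusted p = 0.0056 and 0.0073 by edgeR). Among the 51 lipid droplet and fatty acid genes, 4 were higher and 3 lower (1 to 10 and 2 to 4 without 1 library), 13.7% in all and close to the share over all genes. Of these, Soat1, which esterifies cholesterol for storage, fell from 752, 781 and 749 CPM to 602, 519 and 517 CPM (log2 fold change -0.48, adjusted p = 0.0065 by edgeR), while the sterol exporter Abcg1 rose by a log2 of 0.56 (adjusted p = 0.0065 by edgeR). Vldlr, a lipoprotein receptor not counted in the cholesterol list, fell from 88.1, 88.5 and 88.7 CPM to 53.1, 57.02 and 59.5 CPM (log2 fold change -0.65 ± 0.07, adjusted p = 0.00018 by edgeR).

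Promoter windows are shown for 4 called genes, 1 for each of 4 short motifs that belong to factors of the pathways described, to let the sequence stand beside the change. RefSeq windows on GRCm38.p6, 250 bases before to 50 bases after a transcription start, were available for 11216 of the tested genes (14235 windows). Capitals mark the motif, positions count from the start base as 0, and both strands were searched. Nap1l5, a nucleosome assembly protein gene that fell, holds the forkhead core GTAAACA at -239 to -233 of its window (chr6:58907077-58907376, minus strand); the other 3 named genes whose windows hold this core, Aldoc, Mkrn3 and Pdpn, were called higher (log2 0.81, 0.45 and 0.56), Mkrn3 in none of the 6 fits that left out a library. Hmgcs1, which rose, holds the sterol element core TCACNCCAC at -137 to -129 (chr13:119690101-119690400, plus strand). Amotl2, which rose, holds the TEAD core GGAATG on the reverse strand at -65 to -60 (chr9:102717554-102717853, plus strand), and Bhlhe41, which rose, holds the E-box CACGTG at -153 to -148 (chr6:145865371-145865670, minus strand). Other named genes with the sterol core, the TEAD core or the E-box went both ways. Among those that fell were Spp1 (sterol core), Sulf2 and Irs1 (TEAD core), and Ptgs2 and Kcnj2 (E-box).
Nap1l5: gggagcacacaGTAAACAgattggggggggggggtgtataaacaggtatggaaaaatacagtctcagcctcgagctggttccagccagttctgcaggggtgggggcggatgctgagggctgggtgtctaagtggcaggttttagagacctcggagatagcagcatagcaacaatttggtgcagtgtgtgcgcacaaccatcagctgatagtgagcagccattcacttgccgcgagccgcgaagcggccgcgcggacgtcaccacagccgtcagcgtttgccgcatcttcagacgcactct
Hmgcs1: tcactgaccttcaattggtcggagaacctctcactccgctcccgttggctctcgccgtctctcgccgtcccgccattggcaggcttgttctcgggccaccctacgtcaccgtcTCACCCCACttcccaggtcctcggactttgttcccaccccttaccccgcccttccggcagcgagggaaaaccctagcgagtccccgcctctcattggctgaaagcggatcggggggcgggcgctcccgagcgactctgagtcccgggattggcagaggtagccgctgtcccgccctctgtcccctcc
Amotl2: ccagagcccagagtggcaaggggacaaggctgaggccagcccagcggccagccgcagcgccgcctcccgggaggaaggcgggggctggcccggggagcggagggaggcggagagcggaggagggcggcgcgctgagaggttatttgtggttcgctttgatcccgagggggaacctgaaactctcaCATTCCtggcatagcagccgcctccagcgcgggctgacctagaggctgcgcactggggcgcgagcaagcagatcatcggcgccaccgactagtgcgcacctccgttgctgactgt
Bhlhe41: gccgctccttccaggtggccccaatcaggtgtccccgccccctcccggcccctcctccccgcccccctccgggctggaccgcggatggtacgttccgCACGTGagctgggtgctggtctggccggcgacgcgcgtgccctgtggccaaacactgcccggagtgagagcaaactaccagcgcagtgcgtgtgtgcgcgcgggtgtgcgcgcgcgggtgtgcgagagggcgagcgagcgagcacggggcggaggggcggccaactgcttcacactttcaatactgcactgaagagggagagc
A match describes letters and is not a shown binding site. The forkhead core was in 2.54% of all windows, 2.32% of windows of genes called higher and 3.77% of those called lower. Among genes called at 2-fold or more it was in 3.72% of windows of higher and 4.04% of windows of lower genes. The sterol core was in 1.17% of all windows and in 1 of 21 windows of the cholesterol list, that of Hmgcs1. The TEAD core was in 12.5% of all windows, 13.3% of windows of genes called higher and 12 of 25 windows of the YAP and TEAD list, and the E-box in 9.58% of all windows and 6 of 23 windows of the clock list. No test was made on these shares.

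Genes that act in ovulation fell more often than they rose. Of the 27 tested genes of ovulation and the cumulus, 2 were called higher and 9 lower (8 or 9 lower in each fit without 1 library), with a list median of -0.43. Ptgs2, the inducible cyclooxygenase that ovulation requires, was at 339.6, 262 and 317 CPM with scrambled and at 97.97, 130.3 and 108 CPM with Foxl2 siRNA. Every Foxl2 siRNA library lay below every scrambled one, at a log2 change of -1.45 ± 0.24 (adjusted p = 0.0019 by edgeR). Ptges, which turns the product of cyclooxygenase into prostaglandin E2, moved the other way, from 134, 162 and 151 CPM to 253, 260.3 and 257 CPM (log2 fold change 0.79 ± 0.09, adjusted p = 0.00024 by edgeR). Ptger3, a prostaglandin E2 receptor, was at 2.503, 2.34 and 2.599 CPM and dropped to 0.121, 0.217 and 0.6102 CPM. Its level was lowest in replicate 1, the groups were separate, and the log2 change was -2.96 ± 0.56 (adjusted p = 0.0045 by edgeR).

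Egfr, the receptor through which amphiregulin and betacellulin act in the follicle, fell from 71.6, 79.04 and 74.8 CPM to 30.8, 45.9 and 36.5 CPM (log2 fold change -0.99 ± 0.21, adjusted p = 0.0090 by edgeR). Cebpb, a transcription factor induced by luteinizing hormone, fell from 75.7, 76.7 and 60.7 CPM to 35.6, 31.9 and 44.3 CPM (log2 fold change -0.93, adjusted p = 0.0018 by edgeR). Neither gene's groups overlapped. Dusp10, a phosphatase of the stress-activated kinases, rose from 30.4, 29.6 and 30.5 CPM to 58.2, 60.7 and 45.4 CPM (log2 fold change 0.86, adjusted p = 0.0046 by edgeR).

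Genes of cyclic AMP signalling, the pathway of the gonadotropin receptors, were called lower more often than higher, 10 against 4 of 39 tested. The number lower was 7 to 10 and the number higher 1 to 4 when a library was left out. The list median was -0.04, with 18 changes above 0 and 21 below. Those called lower included phosphodiesterases, which break cyclic AMP down: Pde8a fell from 61.1, 60.9 and 62.5 CPM to 36.6, 38.1 and 38.6 CPM (log2 fold change -0.703 ± 0.06, adjusted p = 3.6e-05 by edgeR). Pde3b and Pde4b, chosen after their values were seen, fell by 1.15 and 0.95 on the log2 scale (adjusted p = 0.00090 and 0.0045 by edgeR). Prkar2b, a regulatory subunit of protein kinase A that granulosa cells induce as they mature, was at 124, 168 and 149 CPM and 69.7, 74.6 and 84.9 CPM. Adcy1, an adenylate cyclase activated by calcium, rose from 3.04, 2.78 and 3.03 CPM to 12.3, 10.4 and 8.29 CPM. Both genes had separate groups, at log2 changes of -0.94 ± 0.12 and 1.81 ± 0.23 (adjusted p = 0.00043 and 0.00031 by edgeR).

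In the TGF-beta, activin and BMP pathway 4 genes were called higher and 9 lower of 52 (2 to 5 and 5 to 11 without 1 library). Chrdl1, chordin-like 1, which binds BMPs, was at 2.22, 3.59 and 3.604 CPM with scrambled and at 0.444, 0.415 and 0.689 CPM with Foxl2 siRNA (log2 -2.599 ± 0.36, adjusted p = 0.00061 by edgeR). The ligand Bmp6 fell from 28.2, 37.3 and 31.95 CPM to 13.04, 13.3 and 18.9 CPM (log2 fold change -1.11, adjusted p = 0.0016 by edgeR). Its receptor Bmpr1b, chosen after its values were seen, fell by 1.85 on the log2 scale (adjusted p = 0.0048 by edgeR). The inhibitory Smads differed in direction: Smad6, which dampens BMP signals, fell from 65.5, 59.9 and 53.8 CPM to 42.2, 36.6 and 41.1 CPM, and Smad7 rose from 59.5, 61.9 and 58.3 CPM to 74.3, 75.3 and 82.9 CPM (log2 fold change -0.58 and 0.37, adjusted p = 0.0011 and 0.00091 by edgeR).

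Of 45 tested Wnt genes 5 were called higher and 1 lower, 13.3% in all, close to the share over all genes (1 to 5 higher without 1 library). Axin2, a feedback inhibitor and widely used readout of beta-catenin signalling, rose from 28.3, 22.5 and 23.8 CPM to 68.5, 71.5 and 46.2 CPM, with separate groups (log2 1.32 ± 0.18, adjusted p = 0.00067 by edgeR). Tcf7l1, a repressing partner of beta-catenin, fell from 11.6, 11.5 and 12.2 CPM to 8.25, 7.35 and 8.11 CPM (log2 fold change -0.58, adjusted p = 0.0092 by edgeR). In the Notch list of 25 genes, 1 was higher and 1 lower (1 to 4 and 0 without 1 library). Lfng, a glycosyltransferase that tunes Notch to its ligands, was the higher one, at 11.3, 8.84 and 10.3 CPM against 32.04, 24.6 and 19.9 CPM (log2 fold change 1.33 ± 0.20, adjusted p = 0.0010 by edgeR).

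Insulin-like growth factor genes split 3 higher and 2 lower of 22 (1 to 4 and 1 or 2 without 1 library). That was 22.7% in all, against 13.0% over all tested genes. Igfbp2, which binds insulin-like growth factors, rose from 116, 90.3 and 109.9 CPM to 367, 234 and 201 CPM (log2 fold change 1.34 ± 0.28, adjusted p = 0.0083 by edgeR), with replicate 1 highest. Irs1, the adaptor that carries the signal inward from the insulin and insulin-like growth factor receptors, fell from 69.4, 76.7 and 73.4 CPM to 29.8, 32.1 and 47.6 CPM (log2 fold change -1.002 ± 0.21, adjusted p = 0.0082 by edgeR). Against Esr2 siRNA the difference of Irs1 was -0.06 (adjusted p = 0.87 by edgeR), and that of Igfbp2 was 1.73 (adjusted p = 0.0011 by edgeR).

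**Figure D2:**
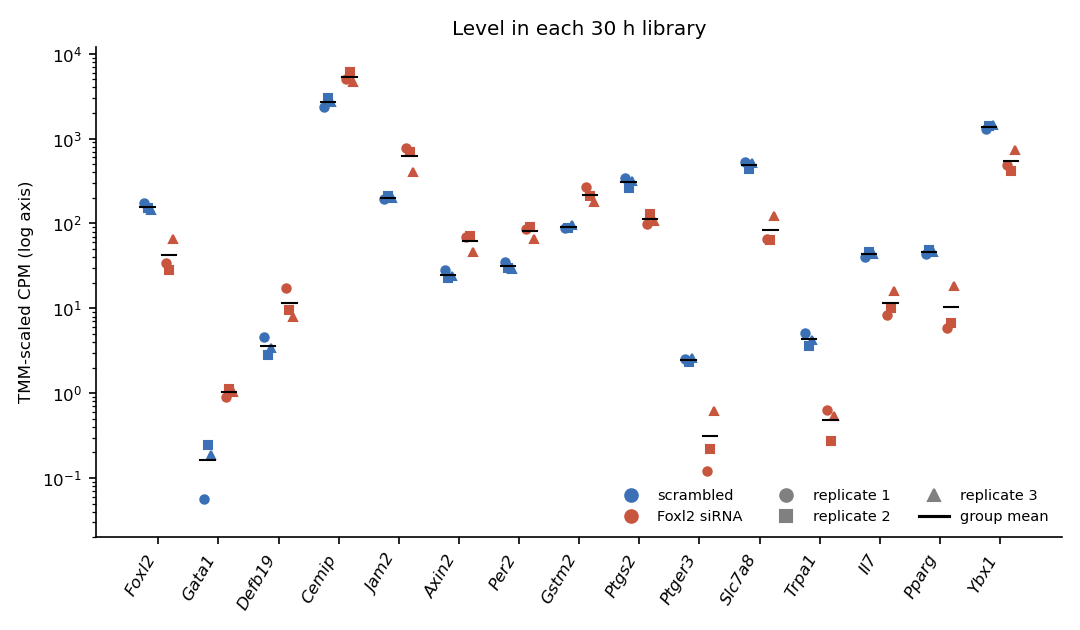
TMM-scaled CPM (log axis) of 15 genes in each of the 3 scrambled (blue) and 3 Foxl2 siRNA (red) libraries at 30 h, with symbols for replicates and a bar for each group's mean. The 15 were picked from called genes, of which 1921 of 1936 had groups that did not overlap, against 33.0% of all tested genes. That the groups do not overlap for any of the 15 follows largely from this choice. For 12 of them, among them Foxl2, Pparg and Ybx1, Foxl2 siRNA replicate 3 is the library nearest to the scrambled ones.

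Genes that tie integrins to actin were called in 1 direction. Of 50 tested genes of focal adhesion and actin linkage, 10 were called higher and 0 lower, with 5 to 13 higher and 0 to 3 lower when 1 library was left out, the 3 without Foxl2 siRNA replicate 3. Parvb, beta-parvin, which binds integrin-linked kinase and actin, rose from 2.39, 3.82 and 3.42 CPM to 14.3, 10.6 and 7.26 CPM (log2 fold change 1.74 ± 0.32, adjusted p = 0.0036 by edgeR). Sorbs3, vinexin, a vinculin partner, rose from 54.2, 64.2 and 58.96 CPM to 81.9, 96.6 and 75.9 CPM (log2 fold change 0.52, adjusted p = 0.0025 by edgeR). Integrins themselves went both ways, 3 higher and 4 lower of 22 (1 to 4 and 3 to 5 without 1 library). The share of integrins called was 31.8%, against 13.0% over all tested genes. Itga7, a laminin receptor subunit, rose by a log2 of 0.91 and Itga11, a collagen receptor subunit, fell by 1.19 (adjusted p = 0.0093 and 0.0018 by edgeR). The cytoskeletal genes Vim (vimentin) and Actb (beta-actin) rose from 1909, 1979 and 1977 CPM to 3252, 3047 and 2889 CPM and from 2563, 2433 and 2532 CPM to 3048, 3003 and 3206 CPM (log2 fold change 0.65 and 0.298, adjusted p = 0.0014 and 0.0086 by edgeR). Smooth muscle and pericyte markers, which share the actin machinery, summed to 1179, 1850 and 1729 CPM with scrambled and to 889, 1635 and 1649 CPM with Foxl2 siRNA, and 0 of 13 passed.

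Targets and members of the YAP and TEAD pathway, which answers to cell shape and tension, were called higher in 9 and lower in 2 of 29 genes, with a median of 0.31 (3 to 12 higher without 1 library, most without Foxl2 siRNA replicate 3). Nt5e, the ecto-enzyme CD73 that makes adenosine, rose from 20.8, 37.2 and 28.6 CPM to 76.4, 89.5 and 69.4 CPM (log2 fold change 1.44 ± 0.22, adjusted p = 0.0011 by edgeR). Amotl2, a binding partner of YAP, rose from 693, 679.8 and 669 CPM to 905, 975 and 1013 CPM (log2 fold change 0.503 ± 0.09, adjusted p = 0.0022 by edgeR); its promoter window is printed above. F3, tissue factor, fell from 88.4, 57.2 and 71.7 CPM to 41.04, 42.9 and 41.6 CPM (log2 fold change -0.79 ± 0.14, adjusted p = 0.0024 by edgeR). Yap1 itself, chosen after its values were seen, fell by 0.26 on the log2 scale (adjusted p = 0.0080 by edgeR).

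At cell junctions, 5 genes of claudins, connexins and tight junctions were called higher and 2 lower of 36 (2 to 10 higher and 1 to 3 lower without 1 library). Jam2, a junctional adhesion molecule, was at 194, 213 and 199 CPM with scrambled and at 774, 691 and 400.2 CPM with Foxl2 siRNA. All 3 Foxl2 siRNA libraries were higher, replicate 3 least (log2 1.62 ± 0.30, adjusted p = 0.0036 by edgeR). Gja1, connexin 43, which couples granulosa cells to one another, was at 1124, 1402 and 1338 CPM and 189, 234 and 589.8 CPM; its call (log2 -1.93 ± 0.50, adjusted p = 0.024 by edgeR) held in only 1 of the 6 fits that left out a library, the one without Foxl2 siRNA replicate 3. Crb2, an apical polarity protein, rose from 14.9, 14.3 and 14.7 CPM to 30.95, 31.2 and 28.5 CPM (log2 fold change 1.05 ± 0.11, adjusted p = 0.00010 by edgeR). Among 76 cadherins and protocadherins only 2 were called higher and 2 lower (2 to 7 and 2 or 3 without 1 library), with Cdh2 (N-cadherin) at a log2 of 0.42 and Pcdh7 at -1.17 (adjusted p = 0.0032 and 0.00069 by edgeR).

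In the matrix, Cemip, which takes part in breaking down hyaluronan, rose from 2352, 3011 and 2684 CPM to 5024, 6121 and 4599 CPM (log2 fold change 0.97 ± 0.14, adjusted p = 0.00083 by edgeR). Sulf2, which trims sulfate from heparan sulfate, fell from 407, 429 and 437 CPM to 204, 234 and 234 CPM (log2 fold change -0.92 ± 0.08, adjusted p = 3.6e-05 by edgeR). Dag1, dystroglycan, a laminin receptor, fell from 2218, 2869 and 2625 CPM to 1220.4, 1447 and 1733 CPM (log2 fold change -0.81, adjusted p = 0.0049 by edgeR). The 3 genes had separate groups. Of 115 secreted proteases and inhibitors, 16 were called higher and 7 lower (5 to 16 and 2 to 11 without 1 library). The share called was 20.0%, against 13.0% over all tested genes. Among them was the metalloprotease inhibitor Timp3, chosen after its values were seen, at a log2 of 1.404 (adjusted p = 0.0064 by edgeR). The proprotein convertase Pcsk5, outside that list, fell from 184, 181 and 176 CPM to 97.1, 99.2 and 96.3 CPM. Pcsk5 tied with the ceramide synthase Cers5 (124, 129.5 and 126 CPM against 63.2, 54.9 and 66.7 CPM) for the smallest adjusted p of all (edgeR, 5.8e-06). Wisp1, a matricellular protein known as a Wnt target, rose from 64.8, 91.5 and 82.1 CPM to 215, 285 and 182 CPM (log2 fold change 1.52, adjusted p = 0.00014 by edgeR).

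Surface epithelium and mesothelial genes, the markers of the layer that covers the ovary, were called higher in 6 and lower in 0 of 20, and their summed level was 594 to 618 CPM with scrambled and 835 to 899 CPM with Foxl2 siRNA. Pdpn, podoplanin, rose from 29.1, 35.1 and 36.5 CPM to 47.6, 51.2 and 49.96 CPM (log2 fold change 0.56 ± 0.11, adjusted p = 0.0054 by edgeR). Upk3b, a uroplakin of mesothelium, was at 7.53, 18.02 and 13.7 CPM against 23.6, 33.2 and 33.5 CPM, while Krt19 stayed at 2.03 to 2.29 CPM against 1.91 to 2.10 CPM and Lgr5 had 30 counts against 26. Whether the number of such cells differed between the groups was not tested.

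Sarcomere and muscle calcium genes were called higher in 9 and lower in 1 of 56 (8 to 11 higher without 1 library). The share called was 17.9%, against 13.0% over all tested genes. The list median was 0.07, with 31 changes above 0 and 25 below. Smpx, a small protein of muscle and of mechanically loaded cells, rose from 22.6, 21.6 and 21.5 CPM to 114, 74.7 and 74.7 CPM, each Foxl2 siRNA library over 3 times as high as any scrambled one (log2 2.005 ± 0.21, adjusted p = 0.00013 by edgeR). Of 93 ion channel genes, 1 was called higher and 10 lower (0 to 8 higher and 6 to 10 lower without 1 library). That was 11.8% in all, near the 13.0% over all tested genes, and the list median was 0.01. Trpa1, a cation channel opened by irritants, was at 5.06, 3.55 and 4.26 CPM and fell to 0.626, 0.277 and 0.531 CPM, and Kcnj2, an inward rectifier that sets the resting potential, fell from 5.197, 6.62 and 5.197 CPM to 1.37, 1.34 and 1.95 CPM. Both were separate between groups, at log2 changes of -3.16 ± 0.24 and -1.86 ± 0.16 (adjusted p = 1.8e-05 and 3.6e-05 by edgeR). The voltage-gated channel Kcnd2 and the receptor-operated channel Trpc6 fell by 1.93 and 1.27 on the log2 scale (adjusted p = 0.00075 and 0.00050 by edgeR).

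Several genes of amino acid transport fell. Of 50 monocarboxylate and amino acid transporters, 4 were called higher and 9 lower (1 to 4 and 7 to 10 without 1 library). Slc7a8 (ENSMUSG00000022180, chr14:54722209-54781946, minus strand, GENCODE M21 on mm10), the light chain of the large neutral amino acid transporter LAT2, stood at 527, 436 and 511 CPM with scrambled and at 66.4, 63.1 and 122 CPM with Foxl2 siRNA. Slc3a2, the heavy chain that carries it to the membrane, stood at 331, 283 and 328 CPM and 143, 139 and 180.3 CPM. Replicate 3 fell least in both, and the log2 changes were -2.55 ± 0.33 and -1.03 ± 0.12 (adjusted p = 0.00040 and 0.00022 by edgeR). Slc16a10, an aromatic amino acid carrier, fell from 18.02, 18.04 and 18.1 CPM to 7.22, 6.04 and 8.78 CPM (log2 fold change -1.296, adjusted p = 0.00021 by edgeR). Of 41 genes of the unfolded protein and integrated stress responses, 2 were called higher and 7 lower (5 to 12 lower without 1 library, the 12 without Foxl2 siRNA replicate 3), and 1 of them, Pck2, mitochondrial phosphoenolpyruvate carboxykinase, fell by 0.93 on the log2 scale (adjusted p = 0.0010 by edgeR). Slc7a8 also differed from Esr2 siRNA (difference -2.85, adjusted p = 9.2e-05 by edgeR).

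Glutathione genes included 3 transferases that rose. Gstm2 rose from 89.1, 88.99 and 95.3 CPM to 265, 212 and 179 CPM and Gstm6 from 5.98, 6.93 and 6.45 CPM to 20.6, 19.1 and 13.2 CPM (log2 fold change 1.26 ± 0.20 and 1.45 ± 0.25, adjusted p = 0.0013 and 0.0021 by edgeR). Gstm1, chosen after its values were seen, rose by 1.19 (adjusted p = 0.0037 by edgeR). These genes lie in 1 family of near copies, so their shares of the reads are uncertain. Ggct, a gamma-glutamylcyclotransferase of glutathione turnover, rose from 14.03, 12.1 and 12.6 CPM to 26.7, 22.4 and 21.4 CPM (log2 fold change 0.87, adjusted p = 0.00060 by edgeR). Of the 50 genes of sulfur amino acids and glutathione, 6 were called higher and 2 lower (5 to 7 and 2 to 6 without 1 library). That was 16.0% in all, near the 13.0% over all tested genes, and the list median was 0.02.

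Clock genes were called in 7 of 20 cases, 5 higher and 2 lower (5 or 6 and 1 or 2 without 1 library). Per2, a repressor of the clock, was at 35.3, 29.8 and 28.99 CPM with scrambled and at 86.02, 90.5 and 66.4 CPM with Foxl2 siRNA (log2 1.37 ± 0.12, adjusted p = 3.6e-05 by edgeR). Bhlhe41, another clock repressor, whose promoter window is printed above, rose from 2.04, 2.07 and 2.03 CPM to 4.68, 6.16 and 3.96 CPM (log2 fold change 1.27 ± 0.17, adjusted p = 0.00058 by edgeR). Nr1d2, the nuclear receptor REV-ERB beta, fell from 28.6, 29.97 and 27.2 CPM to 17.9, 20.6 and 17.4 CPM (log2 fold change -0.62, adjusted p = 0.00030 by edgeR). The labels give no time of day for the transfections. Among the 38 nuclear receptors tested 2 were called higher and 5 lower (1 to 3 and 2 to 5 without 1 library). That was 18.4% in all, against 13.0% over all tested genes. Pparg, the lipid-sensing receptor that granulosa cells express, was at 43.1, 48.6 and 45.8 CPM against 5.83, 6.66 and 18.2 CPM. Its groups were separate, replicate 3 falling least (log2 -2.16 ± 0.46, adjusted p = 0.0086 by edgeR).

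Secreted factors and receptors changed in both directions, 10 higher and 8 lower of 70 chemokines and cytokines (3 to 11 and 3 to 9 without 1 library) and 15 higher and 11 lower of 111 G protein-coupled receptors (7 to 22 and 8 to 13). Il7, a lymphocyte growth factor, fell from 40.7, 45.6 and 43.9 CPM to 8.23, 10.2 and 16.1 CPM (log2 fold change -1.92 ± 0.20, adjusted p = 0.00014 by edgeR). Angpt1, the ligand of the endothelial receptor TIE2, fell from 8.35, 9.902 and 9.59 CPM to 1.695, 3.14 and 2.87 CPM (log2 fold change -1.85, adjusted p = 0.00088 by edgeR). Fgf18, which signals through fibroblast growth factor receptors, rose from 16.4, 19.1 and 17.7 CPM to 40.4, 35.98 and 36.3 CPM (log2 fold change 1.08 ± 0.09, adjusted p = 3.6e-05 by edgeR). The 3 genes had separate groups. S1pr5, a sphingosine 1-phosphate receptor, rose from 0.2102, 0.176 and 0.268 CPM to 2.1995, 2.11 and 1.52 CPM and Adora2b, an adenosine receptor, from 2.37, 3.904 and 3.12 CPM to 8.68, 7.94 and 7.15 CPM (log2 fold change 3.12 and 1.34, adjusted p = 0.00015 and 0.00062 by edgeR).

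Several abundant genes were among those called. Ybx1, an RNA- and DNA-binding Y-box protein, was at 1302, 1411 and 1429.7 CPM with scrambled and fell to 482, 417 and 725 CPM (log2 fold change -1.35 ± 0.17, adjusted p = 0.00041 by edgeR). Bzw1, a regulator of translation initiation, and Far1, which reduces fatty acids to alcohols, fell by 0.74 and 0.96 on the log2 scale (adjusted p = 0.00058 and 0.00027 by edgeR). Usp9x, a deubiquitinating enzyme, rose from 782, 777 and 754 CPM to 1856, 1643 and 1240.2 CPM, replicate 3 least (log2 1.04 ± 0.15, adjusted p = 0.00068 by edgeR). Iqsec1, an exchange factor for ARF6, and Stk26, a serine/threonine kinase, rose 2.35-fold and 3.604-fold (adjusted p = 1.8e-05 and 0.00010 by edgeR). Arhgap21 rose 2.16-fold and Arhgap28 fell 3.38-fold (adjusted p = 4.6e-05 and 3.3e-05 by edgeR); both encode GTPase-activating proteins.

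Few genes of the cell division, ribosome and respiratory chain lists were called in the main fit. In the alternative fit with voom and quality weights more were called lower: 26 mitosis, 29 replication, 33 ribosomal protein and 7 respiratory chain genes. That fit called 0, 2, 0 and 1 of them higher. In the main fit 0 of 48 mitosis genes were called, 46 had a log2 change below 0 and the list median was -0.24. Of 50 replication genes 0 were called higher and 4 lower, with a median of -0.24. Without Foxl2 siRNA replicate 3, 7 mitosis genes and 12 replication genes were called lower. Without scrambled replicate 1, and likewise without scrambled replicate 3, 0 replication genes were called lower. Of 34 p53 target and growth arrest genes, 17.6% were called, against 13.0% over all tested genes, 5 higher and 1 lower (3 to 7 and 0 or 1 without 1 library). Gadd45g, a stress-induced growth arrest gene, rose from 38.2, 33.8 and 33.03 CPM to 72.7, 99.4 and 69.03 CPM, and Cdkn2b, which encodes the cyclin-dependent kinase inhibitor p15, rose from 19.4, 17.9 and 17.6 CPM to 37.1, 33.002 and 30.1 CPM (log2 fold change 1.200 ± 0.17 and 0.87 ± 0.16, adjusted p = 0.00068 and 0.0040 by edgeR). Of 81 cytoplasmic ribosomal protein genes 0 were called, at a list median of -0.15, and 40 were called lower without Foxl2 siRNA replicate 3. Of 57 interferon response genes, 2 were called higher and 0 lower (0 to 3 higher without 1 library). The list median was 0.27, with 45 changes above 0 and 12 below. The respiratory chain list had 0 of 85 called and a median of -0.05, with 8 called lower without Foxl2 siRNA replicate 3.

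**Figure D3:**
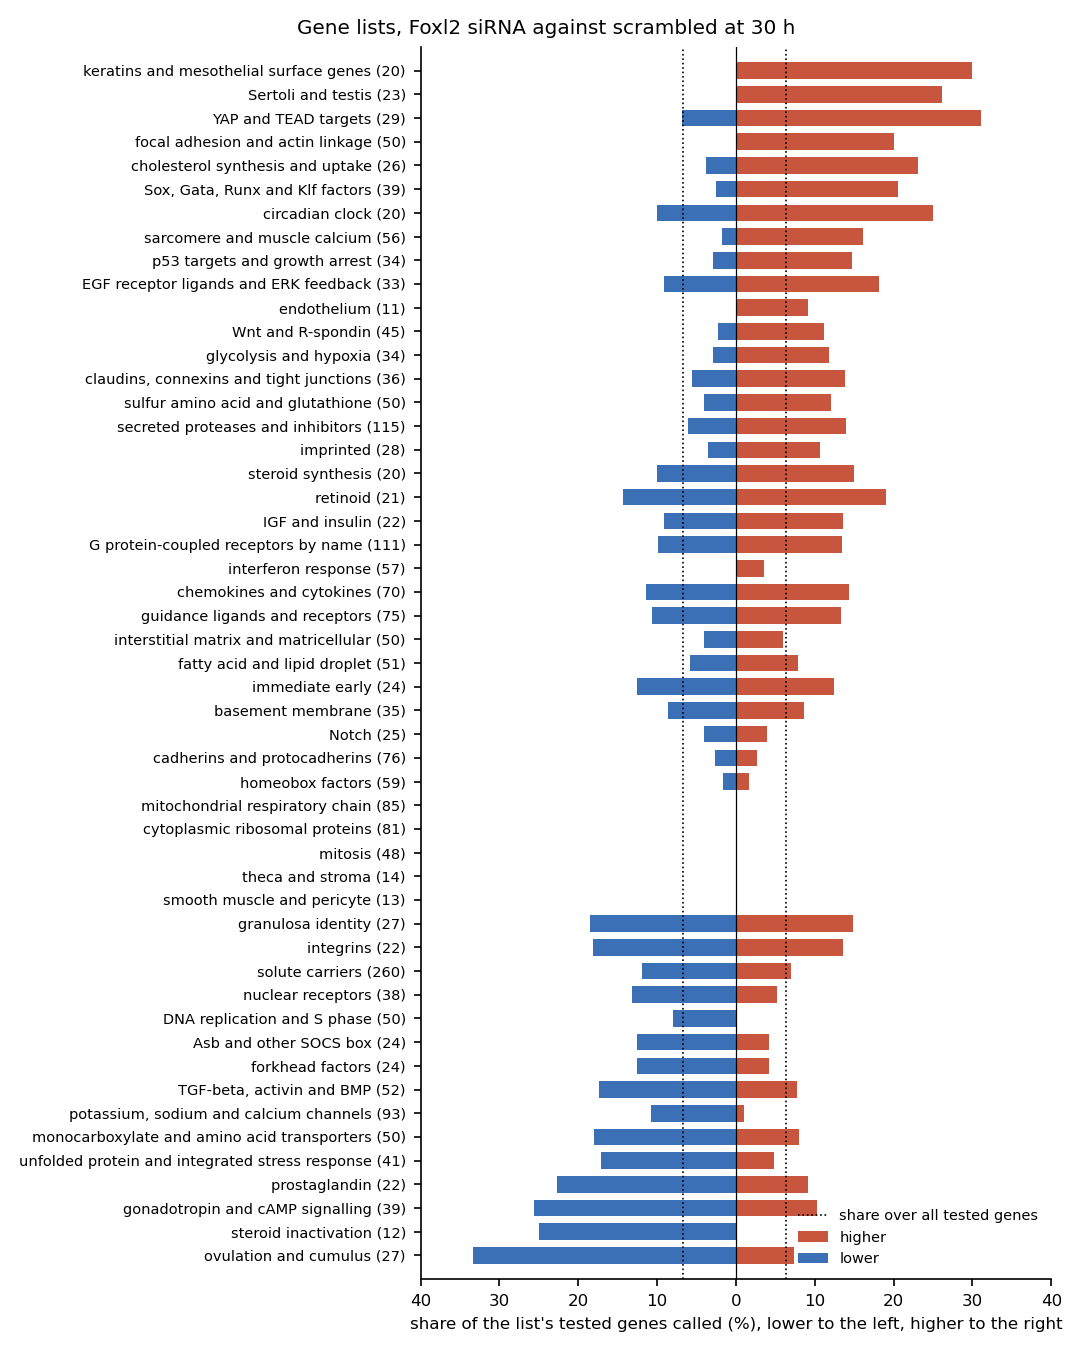
Share of each list's tested genes called lower (left, blue) and higher (right, red) with Foxl2 siRNA at 30 h, with the number tested in brackets and dotted lines at the share over all tested genes (6.65% lower, 6.34% higher). Lists with fewer than 11 tested genes are left out. Among those drawn, ovulation and cyclic AMP genes reach furthest to the left, and YAP and TEAD targets, mesothelial and Sertoli genes furthest to the right.

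The 30 h changes were read against the 54 h libraries, which are separate libraries with their own scrambled controls. Both comparisons came from the fit of all 15 libraries and shared its estimate of the spread. The times are those of the sample titles; the extraction protocol in the labels names 30 h for every sample. At 54 h, 38.8% of tested genes were called (edgeR adjusted p under 0.05). Of the 1936 genes called at 30 h, 1822 (94.1%) were called at 54 h in the same direction, 0 in the opposite one, and 114 were not called; the shared genes made up 31.5% of the calls at 54 h. The change was further from 0 at 54 h than at 30 h for 1603 of the 1936, although calling genes on 30 h values bears on this count. The median absolute log2 change of the 1936 was 0.56 at 30 h and 0.76 at 54 h. The difference between the 2 times passed for 0.00671% of genes, which is 1 gene, Gadd45b (edgeR), while 1510 genes had an unadjusted p under 0.05 for it. F3 was among the 114: its log2 change was -0.79 at 30 h and -0.10 at 54 h (edgeR adjusted p at 54 h = 0.59), and the difference did not pass (adjusted p = 0.24 by edgeR).

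**Figure D4:**
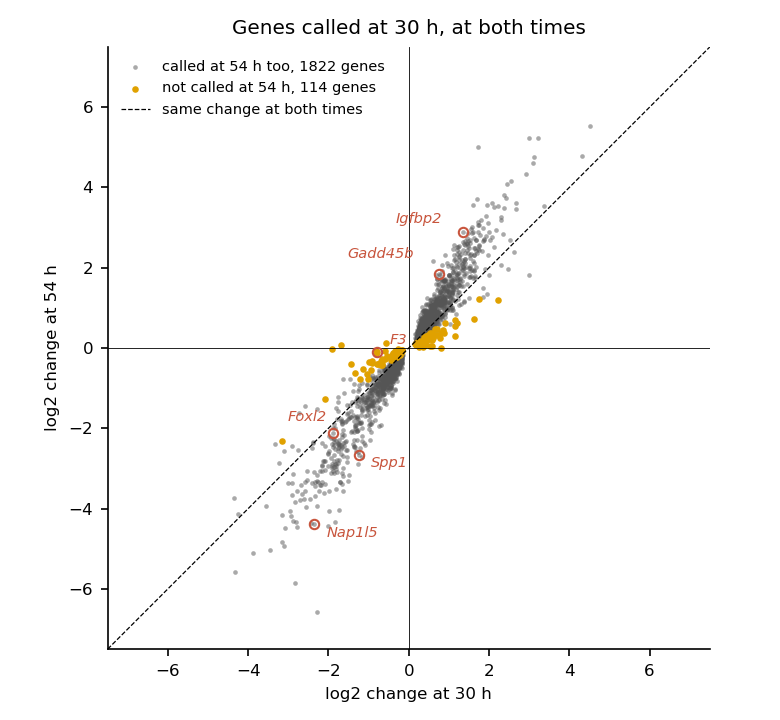
Log2 change at 54 h against that at 30 h for the 1936 genes called at 30 h, with the 114 not called at 54 h in yellow and the dashed line marking equal change. Nearly all points lie in the quadrants of shared direction, and Gadd45b is the gene whose change differed between the times by edgeR.

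Genes selected by their change at 54 h gave a further view of each 30 h library. The changes compared 54 h libraries only. The filter, the scaling and the estimate of spread behind the calls came from the fit of all 15 libraries, those of 30 h included. The 887 genes called and at least 2-fold higher at 54 h had a median log2 ratio to the 30 h scrambled mean of 0.66, 0.70 and 0.38 in Foxl2 siRNA replicates 1, 2 and 3, and of 0.01, 0.01 and 0.07 in the Esr2 siRNA libraries. The 643 genes at least 2-fold lower at 54 h had medians of -0.88, -0.82 and -0.56, against -0.20, -0.11 and -0.15 with Esr2 siRNA. Replicate 3 moved in the same direction as the other 2 Foxl2 siRNA libraries, by a smaller amount.

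**Figure D5:**
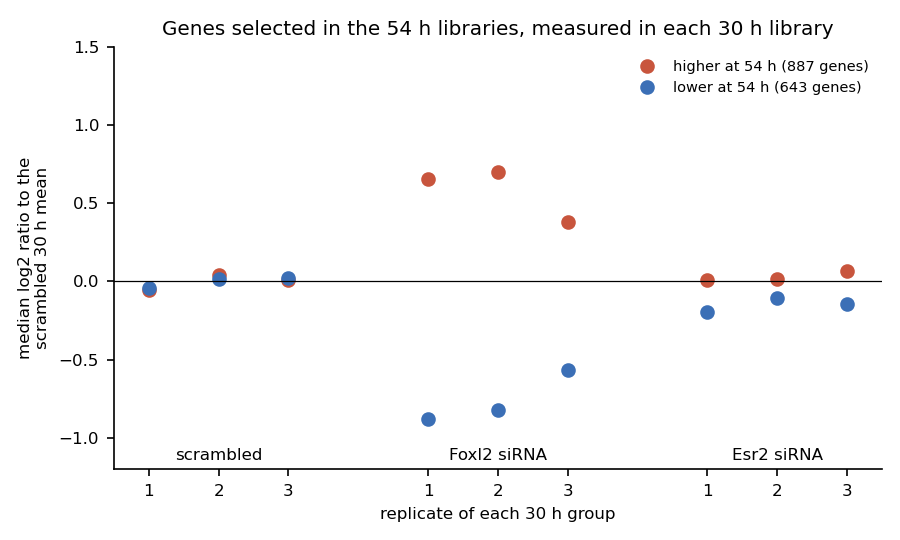
Median log2 ratio to the 30 h scrambled mean, in each 30 h library, of genes selected in the 54 h libraries as at least 2-fold higher (red, 887 genes) or lower (blue, 643 genes). The 3 Foxl2 siRNA libraries lie at 0.38 to 0.70 and at -0.88 to -0.56, and the Esr2 siRNA libraries within 0.20 of 0.

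Foxl2 siRNA was also compared directly with Esr2 siRNA at 30 h, without the scrambled libraries. In that comparison 20.4% of tested genes were called. It shares the 3 Foxl2 siRNA libraries with the comparison against scrambled, so an overlap of the calls is not given and the values of single genes stand side by side. For Trpa1, Slc7a8 and Ptgs2 the log2 difference of Foxl2 siRNA from Esr2 siRNA was -3.67, -2.85 and -1.79 (adjusted p = 1.7e-06, 9.2e-05 and 0.00028 by edgeR). Bhlhe41 and Gata1 were higher by 2.09 and 2.80 (adjusted p = 9.5e-06 and 0.0034 by edgeR). The X-linked genes Luzp4 and Gm15127 fell against scrambled, from 7.72, 5.73 and 6.74 CPM to 1.61, 1.13 and 1.63 CPM and from 5.92, 4.81 and 5.45 CPM to 1.19, 0.849 and 1.299 CPM, and differed from Esr2 siRNA by -0.09 ± 0.19 and -0.23 ± 0.20 (SE; adjusted p = 0.78 and 0.44 by edgeR).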

How the data were processed

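RNA of 15 libraries of mouse granulosa cells was sequenced, and the authors deposited raw read counts per gene. Per the submitters' processing notes, the build was mm10 and the tools included TopHat2, DESeq2 and bcl2fastq 2.15.0; for the counting tool, its strand setting and the annotation nothing is given in the sources used here. The deposited table held 24490 genes and 92 spike-ins, which were left out; 15 gene symbols that had become dates were restored. Counts of the 15 libraries were fitted together with edgeR 4.0.16 in R 4.3.3 (quasi-likelihood test, TMM scaling, filterByExpr, 5 group means, two-sided), with Benjamini-Hochberg adjustment over 14907 genes and calls at an adjusted p under 0.05. The 6 libraries compared held 44.98 M to 59.4 M gene counts, so that 3 counts in a library stood for 0.0505 to 0.0667 CPM; such limits cover counting error only. The code was tested on simulated data.

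Genes named were Foxl2 and Esr2 and, among called genes with separate groups and a higher group mean of at least 5 CPM, in each direction the 15 with the largest log2 change, the 10 with the smallest p and the 10 with the largest CPM difference, plus the 4 called members of each gene list with the smallest p. The members and lists were chosen with earlier results of these data known. Alternatives were upper-quartile scaling, DESeq2 1.42.0, no low-count filter, the 6 libraries alone, a replicate block, limma 3.58.1 voom with quality weights, and leaving out each of the 6 libraries. Same-numbered libraries of the 2 groups deviated together with correlations of 0.494, 0.439 and 0.0662. The main fit took no account of this, and the replicate block among the alternatives did. Whether same-numbered libraries share an origin was not tested. Gene positions are from GENCODE M21.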

Additional observations from a re-analysis of the deposited data

Results flagged for a closer look

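The change of Gadd45b, a stress-induced growth arrest gene, differed between the times. It was at 30.7, 29.2 and 27.7 CPM with scrambled siRNA at 30 h and at 45.4, 51.7 and 50.6 CPM with Foxl2 siRNA. At 54 h it was at 20.2, 25.4 and 22.8 CPM against 86.5, 77.3 and 81.1 CPM. The groups were separate at both times, and the Foxl2 siRNA libraries were higher at 54 h. The log2 change was 0.75 at 30 h and 1.84 at 54 h, and their difference of 1.09 ± 0.12 passed the test of the difference itself (edgeR adjusted p = 0.0078).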

How the results depend on the processing

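No named gene changed direction under the alternatives run. The direction of the other called genes was not compared between them. With voom and quality weights 2489 genes were higher and 2763 lower, 914 were called at 2-fold or more, 889 list genes were called, and 4447 were also called at 54 h, against 945, 991, 504, 365 and 1822. Leaving out 1 library gave 437 to 1432 higher, 461 to 1584 lower, 316 to 752 at 2-fold or more, 211 to 557 list genes and 881 to 2631 also called at 54 h, the highest without Foxl2 siRNA replicate 3. Upper-quartile scaling gave 60.1% of calls higher against 48.8%, and DESeq2 gave 1304 higher and 1270 lower. A replicate block gave 909 higher and 995 lower; scrambled replicate 3 correlated best with Foxl2 siRNA replicate 2, and the other libraries with their own number. The 6 libraries alone gave 719 and 721, and with the block, chosen after seeing the data, 967 and 979. For the named genes other than Foxl2, each gene was counted once per alternative. Of these values, 2378 kept their side of the threshold, 191 lost it and 5, all of Esr2, passed it. Values to which DESeq2 gave no adjusted p, as for Grem1 and Fgf14, were counted as lost. The cause of these differences was not tested. Medians near 0 of the lists of cyclic AMP, Wnt, ERK feedback, immediate early, cadherin, fatty acid and steroid genes changed sign or reached 0 with the scaling. Genes with few counts, such as Gata1, rest on small numbers of reads.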

Other observations

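Genes called at 30 h and not at 54 h included Sytl2, a synaptotagmin-like protein of vesicle transport, and Slc6a14, an amino acid transporter. Sytl2 had a log2 change of -1.35 at 30 h and -0.61 at 54 h (edgeR adjusted p = 0.0071 and 0.089). Slc6a14 had log2 changes of 2.22 and 1.20 (edgeR adjusted p = 0.0076 and 0.053). For neither gene did the difference between the times pass (edgeR adjusted p = 0.56 and 0.66). Both genes were chosen after their values were seen, and both stayed called at 30 h in the 6 fits that each left out 1 library.

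Des, desmin, was low in replicate 1 of both groups, at 22.3 CPM with scrambled and 27.7 CPM with Foxl2 siRNA, against 101 to 113 CPM in the other scrambled and 63.0 to 107 CPM in the other Foxl2 siRNA libraries.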
